A study of Danio rerio with 2 samples.

Results

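Gene expression in single arterial endothelial cells was compared with that in single venous endothelial cells of the early zebrafish embryo, over all genes that enough of these cells expressed. The cells carried the reporter line Tg(-2.3 etv2:GFP)zf372, in which a fragment of the etv2 promoter drives GFP in vascular and blood progenitors, and were untreated. GFP+ cells were sorted from pooled embryos at the 15-18 somite stage and, on another day, at the 20 somite stage, and were captured on a Fluidigm C1 microfluidic chip, with 48 cells per stage. Each stage is 1 sample, so stage, day and chip cannot be told apart. Of the 96 cells, 21 were used. These were the 13 cells of population 6 (arterial, with 10 at 15-18 somites and 3 at 20 somites) and the 8 cells of population 5 (venous, with 4 at each stage), as numbered and named by the authors, who clustered all 96 cells together.

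Expression was given as TPM (transcript abundance relative to all transcripts of a cell), a scale on which every cell sums to the same total and on which the number of reads behind a value is lost. Values over 1 TPM were taken as detection of a gene, and 0 TPM does not show that a gene was absent. Of 27931 genes in the table, 5573 were detected in at least 7 of 13 arterial or at least 4 of 8 venous cells and were compared. The level of a gene is the mean over cells of log2(TPM + 1). The difference is the arterial level minus the venous level, taken within each stage and averaged over both stages with equal weight, and it understates the change of low genes. A gene was called where this difference reached 2 in size and was at least 1 in the same direction at each stage. No p-value is given, because the populations were grouped on the expression of these same cells and cells of 1 sample are not replicates.

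The dorsal aorta and the cardinal vein form from angioblasts of the lateral plate mesoderm. Vascular endothelial growth factor and Notch signalling favour arterial identity, and the ephrin-B2 ligand is a classical label of arterial endothelium. Venous endothelium retains the Vegfc receptor Flt4 (VEGFR3), and the nuclear receptor Nr2f2 is known for its part in venous identity in mouse. Lymphatic vessels later arise from veins under the control of Vegfc and Flt4.

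The levels of 6 markers were looked at first. The authors named these populations by markers that include cldn5b, efnb2a, dll4 and flt4, in the same cells. The direction of these genes is thus no independent check of the names. All 13 arterial cells had cldn5b (ENSDARG00000014059), a tight junction claudin, at 134 to 4068 TPM with a median of 1256 TPM, whereas the 8 venous cells lay between 0.571 and 1452 TPM. The ranges overlapped, with 5 arterial cells above every venous cell. The arterial ligand efnb2a (ENSDARG00000020164) was at 8.71 to 358 TPM in arterial cells, and the venous cells had 0, 0, 0.289 and 72.5 TPM at 15-18 somites and 0, 0, 10.9 and 11.4 TPM at 20 somites. The venous marker flt4 (ENSDARG00000015717) was detected in all 8 venous cells, at 72, 280, 388 and 764 TPM at 15-18 somites and at 70.1, 188, 231 and 261 TPM at 20 somites, and it was above 1 TPM in 8 of 13 arterial cells, with a median of 3.83 TPM. These 3 genes were called in the direction of their names, with differences of 3.60 for cldn5b, 4.53 for efnb2a and -4.81 for flt4. The Notch ligand dll4, the Notch target hey2 and the endocytic adaptor dab2 were not called. The average difference of dll4 (3.34) reached 2, and it missed a call through the earlier stage. Those of hey2 (0.14) and dab2 (-1.10) did not reach 2 in size. By stage the differences were -0.29 and 6.97 for dll4, -0.83 and 1.1 for hey2, and -2.24 and 0.035 for dab2. The etv2 gene itself was high in both, at levels of 12.48 (arterial) and 12.54 (venous) in the earlier sample and of 12.22 and 12.57 in the later one. Of 14 pan-endothelial genes compared, only the cell-surface gene ecscr was called (2.39, higher in arterial cells), and in at least 1 of the 21 omissions of a single cell it did not keep its sign at each stage. The differences of the 14 genes lay between -2.91 and 2.39. Of all genes compared 5.69% were called arterial and 6.35% venous, and a count of this size is too small to read against these shares.

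The cells of both populations had similar numbers of detected genes, from 4329 to 6643 in arterial cells (median 5326) and from 4342 to 6225 in venous cells (median 5121.5). Markers of other cell types differed in part. The summed epidermal list (14 genes) was at 1568 to 14863 TPM in arterial and at 728 to 4320 TPM in venous cells, and nearly all of it came from the simple keratins krt8 and krt18a.1. By contrast, krt4 was at most 5.14 TPM in arterial and 9.23 TPM in venous cells, and krt5 at most 1.56 TPM in arterial and 0 TPM in venous cells. Other epidermal genes went in different directions. The gene aep1 was detected in 12 arterial cells (median 27.0 TPM, up to 80.3 TPM) and 7 venous cells (median 44.5 TPM, up to 260 TPM). Some others reached higher values in single arterial cells. The gene epcam was detected in 4 arterial cells (up to 355 TPM) and 2 venous cells (up to 13.9 TPM). The gene tp63 was detected in 5 arterial cells (up to 82.6 TPM) and 1 venous cell (28.9 TPM), and cldne in 3 (up to 36.7 TPM) and 1 (1.42 TPM). The erythroid list (12 genes) summed to 18.1 to 302 TPM in arterial and 1.92 to 54.2 TPM in venous cells, and the macrophage list (16 genes) to 0.482 to 1580 TPM and 5.13 to 225 TPM. Most of the highest macrophage sum was cebpa in an arterial cell, at 1553 TPM, and lyz and cxcr3.2 were at 0 in all 21 cells. The tailbud and neural list (17 genes) reached 1396 TPM in an arterial cell, mostly through sox3, and at most 2.75 TPM in venous cells. The part of other cell types in the results was not tested.

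Between the populations, 317 genes (5.69% of 5573) were called higher in arterial cells and 354 (6.35%) higher in venous cells. Over all genes compared the median difference was -0.08. Called arterial genes were detected in a median of 10 arterial and 3 venous cells, with median levels of 4.49 against 1.64 in the earlier sample and 5.63 against 1.95 in the later one. Called venous genes were detected in a median of 6 arterial and 6 venous cells, with median levels of 2.39 (arterial) against 4.88 (venous) in the earlier sample and 1.2 against 4.60 in the later one. The calls mostly concerned genes present in more cells of one side, and not genes present in all cells of both. Of the arterial calls, 48 were detected in all 13 arterial cells and 17 in no venous cell. Of the venous calls, 82 were detected in all 8 venous cells and 6 in no arterial cell. When each of the 21 cells was left out in turn, 255 arterial (4.58%) and 282 venous calls (5.06%) stayed at least 1 apart on average with the same sign at each stage. With a pseudocount of 10 in place of 1, which gives low values less weight, 97 arterial and 71 venous calls were left, and the arterial share of calls was 57.7% in place of 47.2%.

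The calls have to be read beside how the genes entered the comparison. Of the 5573 genes, 3520 passed the detection rule in both populations, 758 in arterial cells only and 1295 in venous cells only. Of the arterial calls 184 had passed through arterial cells only, and of the venous calls 208 had passed through venous cells only, so these genes were high in that population by selection. At the edge of the rule, 300 genes were in exactly 7 arterial cells and too few venous cells and 721 in exactly 4 venous cells and too few arterial cells, while 451 and 1262 genes lay 1 cell short. The stages gave a further measure. With a mean size of at least 2 and at least 1 at each stage, 671 genes differed in the same direction at both stages and 417 in opposite directions. Among the genes that passed through both populations these counts were 278 and 291. With a mean size of at least 4 they were 68 and 23 over all genes, and 16 and 14 among the genes that passed through both populations. The surplus of same-direction genes thus lay among genes that passed through a single population. Many of the calls cannot be told apart from the spread between cells. Among genes that passed through both populations this holds at a mean size of at least 4 as well. Genes with large differences or with nearly all cells on one side are described first, as the most marked and not as established ones. Across the 5573 genes, which are not independent replicates, the differences at the stages had a Pearson correlation of 0.158, and 0.119 without the genes of the authors' marker table, which was built on these cells.

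**Figure D1:**
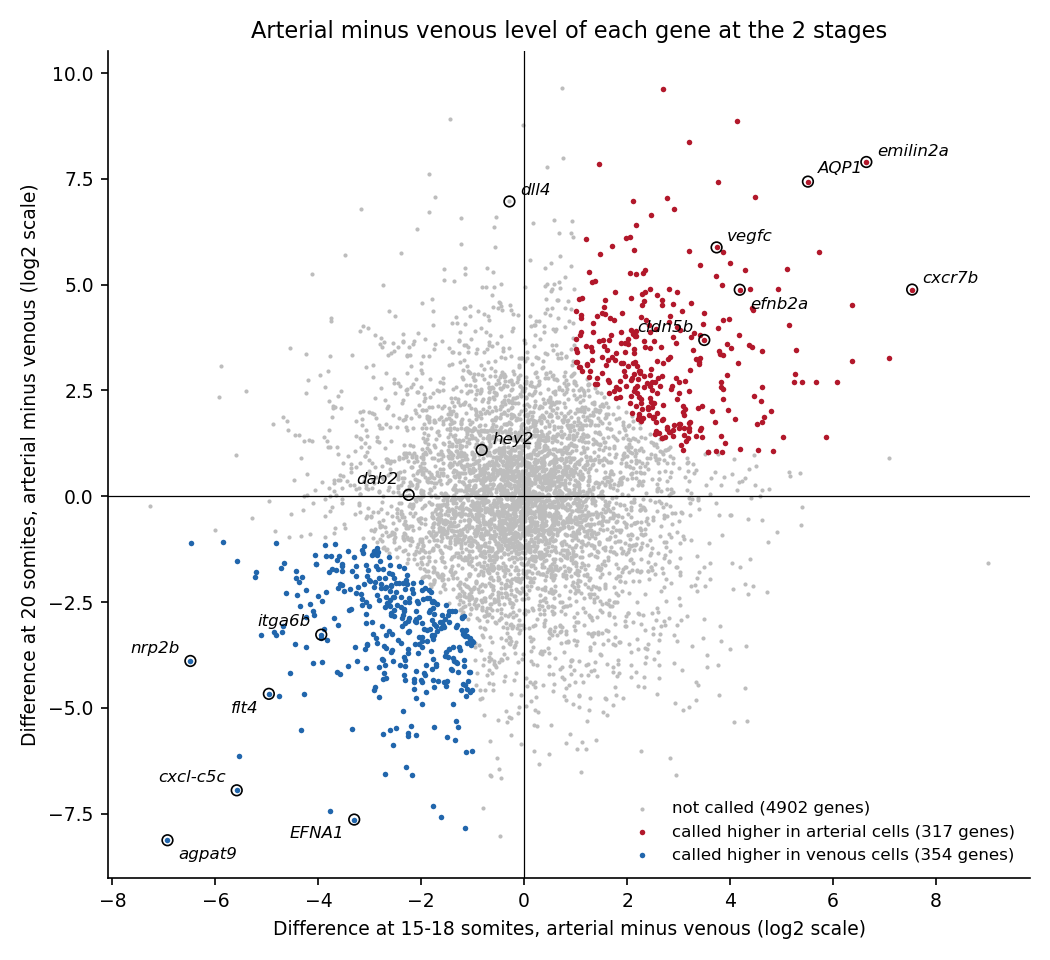
Arterial minus venous difference of 5573 genes at 15-18 somites (horizontal axis) and at 20 somites (vertical axis), both on the log2(TPM + 1) scale, with each dot a gene, the 317 arterial calls in red, the 354 venous calls in blue and selected genes circled and named. The large differences at both stages, such as emilin2a at the upper right and agpat9 at the lower left, lie outside the dense cloud, and dll4 lies near 0 on the horizontal axis at 6.97 on the vertical axis.

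The largest arterial difference belonged to the matrix gene emilin2a (ENSDARG00000061196), a member of the elastin microfibril interfacer family. It was detected in 13 of 13 arterial cells, at 26.1 to 1509 TPM with a median of 734 TPM, and in 2 of 8 venous cells, at 109 and 10.5 TPM. The difference was 7.27, from levels of 8.35 against 1.70 in the earlier sample and 8.78 against 0.88 in the later one, and it lay between 6.83 and 8.12 with any cell left out. Of the arterial cells 9 were above the highest venous cell. The gene passed the detection rule through arterial cells only and was thus high there by selection.

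The next largest arterial differences were those of the locus AL844567.1 (6.51), the water channel gene AQP1 (6.47) and the chemokine receptor gene cxcr7b (6.21). The gene cxcr7b (ENSDARG00000058179), whose product takes up the chemokine Cxcl12, was detected in 10 of 13 arterial cells and reached 5441 TPM, with a median of 641 TPM. In venous cells its highest value was 2.20 TPM, so all 10 of those arterial cells lay above every venous cell. The signalling receptor CXCR4 (ENSDARG00000057633), for the same ligand, was called as well (2.76), in 8 arterial and 1 venous cells, and 7 arterial cells held both receptors while 0 of 8 venous cells did, which allows a share of up to 37.5%. The receptor calcrla (ENSDARG00000011473), related to the calcitonin receptor and known in zebrafish for arterial development, was at 119 to 2230 TPM in all 13 arterial cells and at 0.727 to 792 TPM in venous cells (3.90). AQP1 (ENSDARG00000023713) was detected in 8 arterial cells, at up to 7419 TPM, and in 1 venous cell, at 1.11 TPM. The remaining 5 of 13 arterial cells were at 0 TPM. The genes cxcr7b, CXCR4, AQP1 and AL844567.1 passed the detection rule through arterial cells only and were high there by selection. Of 12 compared G protein-coupled receptors known from endothelium, cxcr7b, CXCR4 and calcrla were the arterial calls. The angiotensin receptor agtr2 was the venous one (-3.55, in 7 venous and 6 arterial cells), which lost its sign at a stage in at least 1 of the 21 omissions. It passed the detection rule through venous cells only. Of all genes compared 5.69% were called arterial and 6.35% venous, and the counts here are too small to read against these shares.

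A further set of arterial genes was detected in no venous cell. The growth factor gene vegfc (ENSDARG00000069640), the ligand of Flt4, was at 0 TPM in all 8 venous cells, which allows a share of up to 37.5%. Among arterial cells it was detected in 9 of 13, with 6.81, 106 and 244 TPM in the 3 cells at 20 somites and 0 to 474 TPM at 15-18 somites (4.81). The gene rgcc (ENSDARG00000035810), a regulator of the cell cycle, was at 0 TPM in the venous cells and detected in 9 arterial cells, at up to 799 TPM (4.91). The bHLH inhibitor id2b (ENSDARG00000029544), from a family known as targets of bone morphogenetic protein (BMP) signalling, showed the same pattern in 8 arterial cells, at up to 572 TPM (4.43). A gene found in no venous cell can enter the comparison only through arterial cells. Thus vegfc, rgcc and id2b were high there by selection. The gene rgcc was named after its values were seen.

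**Figure D2:**
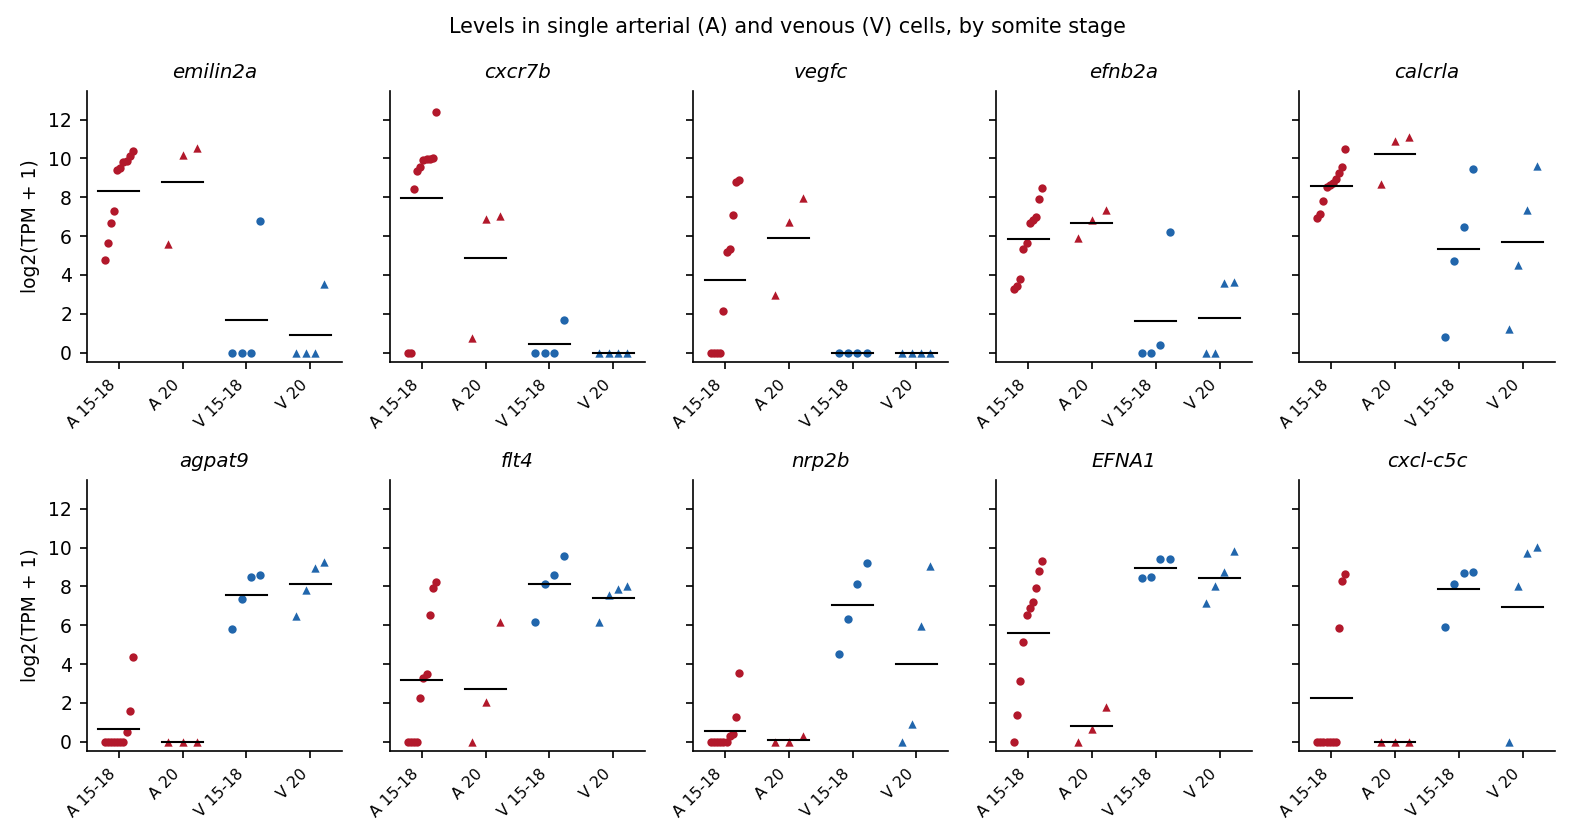
log2(TPM + 1) of 10 genes in each of the 21 cells, by population (A arterial in red, V venous in blue) and stage (circles 15-18 somites, triangles 20 somites), where a point is a cell and a bar the mean of its group. The top row holds genes called higher in arterial cells and the bottom row genes called higher in venous cells, among which agpat9 alone has no overlap between the populations.

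The venous side was led by agpat9 (ENSDARG00000016048), named for a family of acyltransferases of glycerolipid synthesis. It was at 56.0, 164, 361 and 386 TPM in the venous cells at 15-18 somites and at 87.0, 227, 487 and 619 TPM in those at 20 somites. In arterial cells it was above 1 TPM in 2 of 13, at 2.0 and 19.5 TPM. The populations did not overlap, which held for 1 gene of the 5573 compared, and the difference was -7.53 (-7.82 to -7.34 with any cell left out). The chemokine gene cxcl-c5c (ENSDARG00000075163) was detected in 7 venous cells, with a median of 343 TPM over all 8, and in 3 arterial cells of the earlier stage, at 56.9, 313 and 399 TPM (-6.27). The gene slc10a7 (ENSDARG00000019478), a solute carrier of the bile acid transporter family, was at 8.94 to 638 TPM in all venous cells and detected in 4 arterial cells, of which 1 reached 772 TPM and lay above every venous cell (-5.84). The genes agpat9, cxcl-c5c and slc10a7 passed the detection rule through venous cells only and were high there by selection.

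Genes agpat9, flt4 and slc10a7 were all detected in each of the 8 venous cells. Of the 13 arterial cells 1 held all of these, 2 held a pair, 7 held a single gene and 3 held none. These genes were chosen after their values were seen, so the counts describe the choice and do not test whether the genes separate the populations.

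The receptors of the Vegfc pathway lay on the venous side and the ligand on the arterial side. The co-receptor nrp2b (ENSDARG00000038446) was at 21.9, 80.3, 274 and 583 TPM in the venous cells at 15-18 somites and at 0, 0.914, 60.6 and 538 TPM in those at 20 somites. In arterial cells it was at most 10.5 TPM, and 6 venous cells were above every arterial cell (-5.19). Together with flt4 (-4.81) it was 1 of 2 venous calls among 9 compared genes of the VEGF pathway, and vegfc was the only arterial call. The shares of all genes called were 6.35% (venous) and 5.69% (arterial), and counts of this size are too small to read against them. In venous cells flt4 and nrp2b were found together in 6 of 8 cells and vegfc with either in 0 of 8. Both counts follow from those of single genes, since flt4 was in all 8 venous cells and vegfc in 0. Of 13 arterial cells, 9 held vegfc, 8 held flt4 and 6 held both, and 1 held all of vegfc, flt4 and nrp2b. No separation of ligand and receptors between cells is read from these counts. The gene vegfc passed the detection rule through arterial cells only and nrp2b through venous cells only. Each was thus high on its side by selection. The receptor kdrl, the main VEGF receptor of zebrafish endothelium, was at 8.84 against 7.29 and at 9.46 against 7.12 (arterial against venous level at the earlier and later stage), a difference of 1.95 that did not reach the limit for a call.

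Called ephrin genes also lay on both sides. Besides efnb2a, a second gene annotated EFNB2 (ENSDARG00000074050) was called higher in arterial cells (2.60), at 0 to 428 TPM there and 0 to 832 TPM in venous cells. The ephrin-A ligand EFNA1 (ENSDARG00000018787) was higher in venous cells (-5.47), at 143 to 909 TPM in all 8 of them. In arterial cells EFNA1 differed by stage, with 0 to 645 TPM at 15-18 somites and 0, 0.578 and 2.41 TPM at 20 somites. Together, efnb2a and EFNA1 were detected in 10 of 13 arterial and 3 of 8 venous cells. A second gene annotated EFNA1 (ENSDARG00000030326) was at 3.06 (arterial) against 4.52 (venous) in the earlier sample and at 3.90 against 0.81 in the later one. It was not called (0.82). Of 13 guidance genes compared, 2 were called arterial (efnb2a and EFNB2) and 1 venous (EFNA1, ENSDARG00000018787). Of all genes compared 5.69% and 6.35% were called, and the counts here are too small to read against these shares. The ephrin receptor ephb4b was at low levels in both populations and was not called (-1.11). The authors used its other copy, ephb4a, as a venous marker, and that copy was not among the 13 guidance genes compared.

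Of 19 compared matrix and integrin genes 6 were called arterial and 1 venous, beside 5.69% and 6.35% of all genes compared, and of the arterial calls 5 were kept in every omission of a single cell. The median difference was 1.73 against -0.08 over all genes, and 16 of 19 were above 0. Among them emilin2a, col4a1, col4a2, itga6a, lamc1, FN1, hapln3, ITGB1 and ITGB3 passed the detection rule through arterial cells only. These genes were high in arterial cells by selection, whereas itga6b passed through venous cells only. The list was chosen with earlier results of these data known, so its counts and median are not read as a result. The type IV collagen chains of the basement membrane, col4a1 (3.40) and col4a2 (2.59), were detected in 9 and 11 arterial cells and in 2 and 2 venous cells, and both chains were found in 8 of 13 arterial and 1 of 8 venous cells. The proteoglycan gene spock3 (4.79) was detected in all 13 arterial cells, at up to 2202 TPM, and in 4 venous cells, of which 1 had 1323 TPM. NID2, the basement membrane protein nidogen, was at 3.39 to 204 TPM in arterial and 0 to 295 TPM in venous cells (2.31). Of the 6 arterial calls, which were chosen by these same values, every arterial cell held at least 4 and 7 of 13 cells held all 6, while the venous cells held 1 to 4. The list was not uniform, since the matrix proteases mmp2 (-0.94) and MMP14 (-0.92) were below 0.

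**Figure D3:**
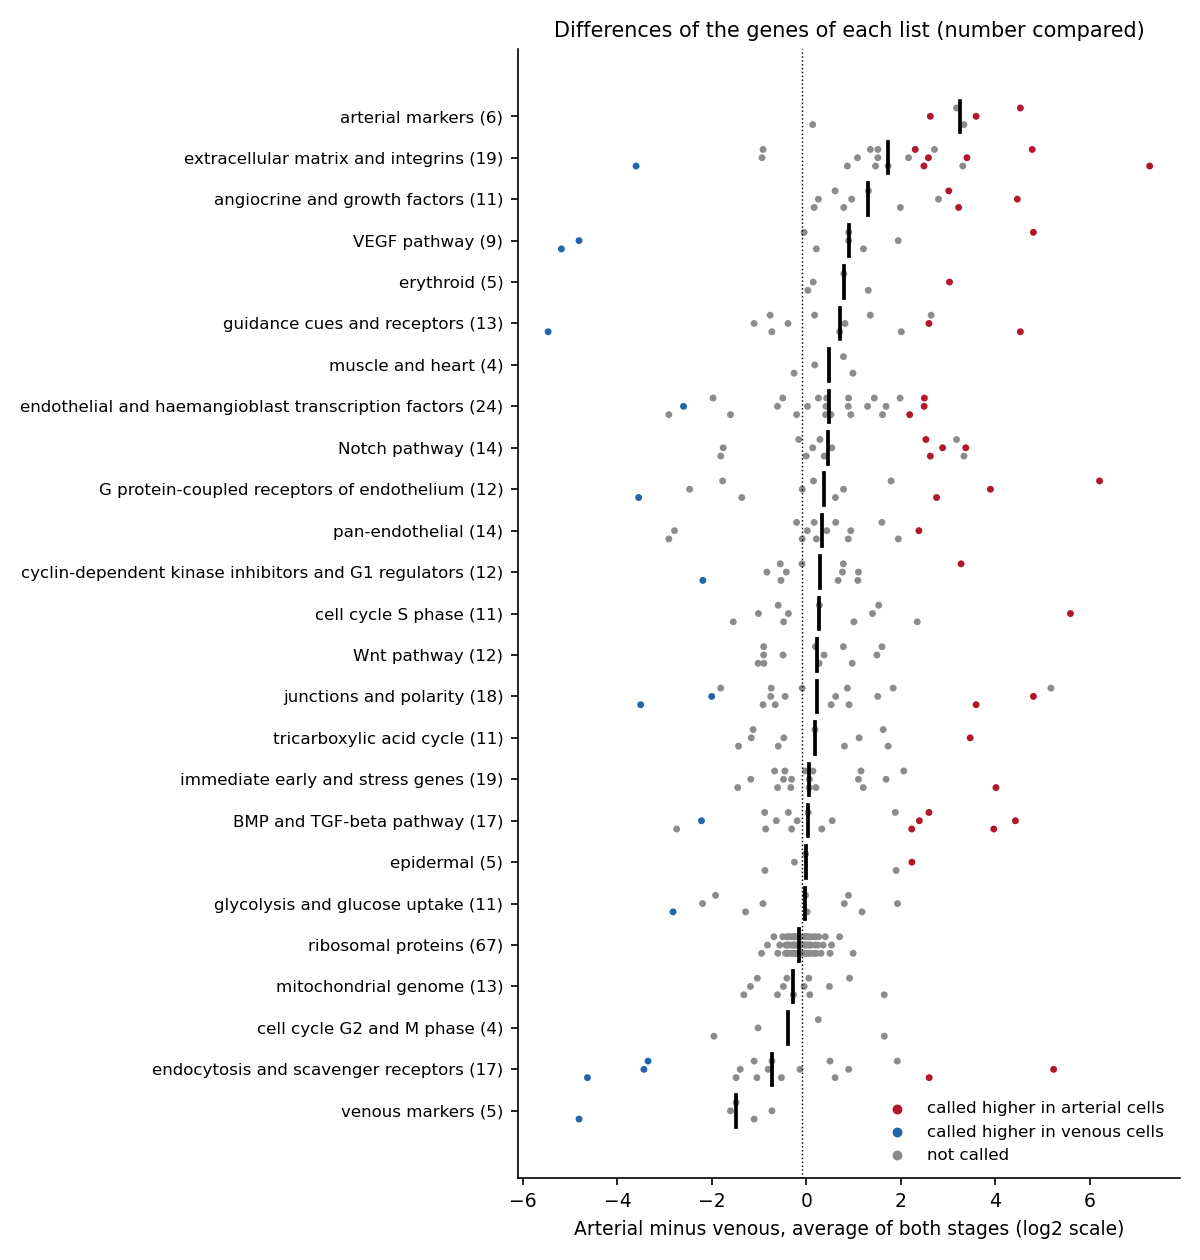
Arterial minus venous difference on the log2(TPM + 1) scale, averaged over both stages, for each compared gene of 25 lists with at least 4 compared genes, where red and blue dots are called genes, grey dots are not called, black bars are list medians and the dotted line is the median of all 5573 genes (-0.08). The matrix list lies mostly to the right of 0, the venous markers to the left, and the ribosomal proteins close to 0.

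The integrin alpha6 gene, whose product is a laminin receptor, has a pair of copies in zebrafish, and these differed in opposite directions. The copy itga6a (ENSDARG00000042282) was at levels of 4.34 (arterial) against 1.12 (venous) in the earlier sample and 3.36 against 1.60 in the later one (2.49, and 1.19 to 3.33 over the 21 omissions, in at least 1 of which it did not keep its sign at each stage). The copy itga6b (ENSDARG00000069946) was at 0.44 against 4.38 and 0.10 against 3.37 (-3.61). In arterial cells itga6b was at most 4.62 TPM, and 5 venous cells were above that. Of the 13 arterial cells 10 held itga6a alone and 2 held both, whereas of the 8 venous cells 3 held itga6b alone and 3 held both. Of the copies of the calcitonin receptor-like gene, calcrla was called at 3.90, and calcrlb (ENSDARG00000011571) was at -2.47 and not called. The highest calcrlb value was in an arterial cell, at 666 TPM against at most 609 TPM in venous cells, and on the log2 of the mean TPM its difference was 0.59. Venous cells with calcrlb also held calcrla, in 6 of 8 cells, and 10 of 13 arterial cells held calcrla alone. Among 70 pairs of symbols that differ only in a final a or b, with both members compared, 12 had a called member. The pairs were matched by symbol alone and include genes that are not copies, such as tbca and tbcb. Of all single genes compared 5.69% were called arterial and 6.35% venous, so nothing is read about copies from this count. The genes itga6a and itga6b were the only pair called in opposite directions. The pair tmem88a (-3.06) and tmem88b (-3.21), genes of Wnt-modulating membrane proteins, was the only pair called in the same direction. Reads of near-identical copies can be split by the quantification, and the part of this in the values was not tested.

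**Figure D4:**
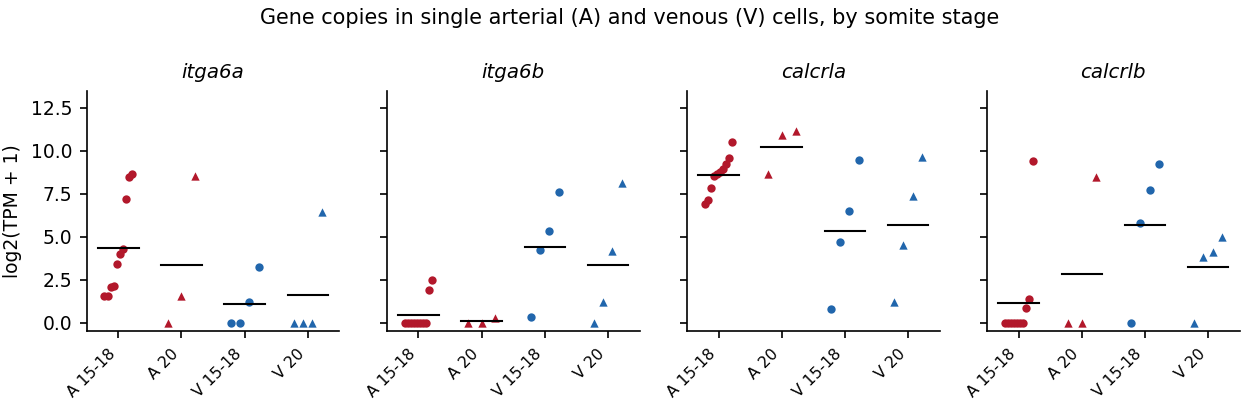
log2(TPM + 1) of itga6a, itga6b, calcrla and calcrlb in each of the 21 cells, by population (A arterial in red, V venous in blue) and stage (circles 15-18 somites, triangles 20 somites), with bars at group means. The first copy of each pair has the higher means in arterial cells and the second in venous cells, and single arterial cells with high calcrlb are seen at both stages.

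Within the Notch pathway the receptors were called, whereas the compared ligands and the hey genes were not. Of 14 compared genes, 4 were called arterial and 0 venous, beside 5.69% and 6.35% of all genes compared, with a median of 0.46. The 3 called receptors passed the detection rule through arterial cells only, as did the ligand dlc, while the ligand dld and RBPJ passed through venous cells only. The receptors were thus high in arterial cells by selection, which also bears on the counts of cells that held them. Nothing is read about the pathway from these calls. The receptors NOTCH1 (2.53), notch2 (3.38) and notch3 (2.63) were low, with medians of 7.87, 4.95 and 26.8 TPM in arterial cells and of 0.12, 0 and 0.16 TPM in venous cells. All 3 receptors were found in 5 of 13 arterial cells and in 0 of 8 venous cells, and every arterial cell held at least 1 of these, whereas 3 venous cells held none. The feedback gene NRARP (ENSDARG00000018958), a target of Notch, was at 1.59 to 375 TPM in arterial and 0 to 21.0 TPM in venous cells (2.89). A second gene annotated NRARP (ENSDARG00000091419) was at 7.13 (arterial) against 8.20 (venous) in the earlier sample and at 7.98 against 5.82 in the later one, and was not called (0.54). The ligand dlc was at 3.02 against 2.33, then at 7.87 against 2.20, and was not called. The average differences of the ligands dlc (3.18) and dll4 (3.34) were above those of NOTCH1 and notch3. These ligands missed a call only through the earlier stage, at 0.69 for dlc and -0.29 for dll4. The target hey1 was at 2.29 (arterial) against 5.96 (venous) in the earlier sample and at 3.02 against 2.97 in the later one. By stage, the median of the list was -0.49 and then 2.42.

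In the BMP and TGF-beta list 5 of 17 genes were called arterial and 1 venous (background 5.69% and 6.35%), and the list median was 0.04. The arterial calls included id2b, a gene annotated ID2 (2.60), the inhibitory SMAD6 (2.23), the ligand tgfb1a (2.39) and the secreted modulator tsku (3.97). SMAD6 and tgfb1a each lost their sign at a stage in at least 1 of the 21 omissions. Of these arterial calls, only ID2 passed the detection rule in both populations. The others passed through arterial cells only and were high there by selection. The venous call was the other inhibitory Smad, smad7 (-2.22), detected in 7 of 8 venous and 5 of 13 arterial cells. It passed through venous cells only. The list was chosen with earlier results of these data known, and nothing is read about it from these counts. The main BMP target id1 was at 11.14 and 11.38 at 15-18 somites and at 11.10 and 11.63 at 20 somites in arterial and venous cells, a difference of -0.38.

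Of 24 compared transcription factors of endothelium and its progenitors, 3 were called arterial and 1 venous, where 5.69% and 6.35% of all genes compared were called, and nothing is read about the list from counts of this size. The arterial calls were gata2a (2.19), FOXC1 and nfia (2.5 each). The venous call was the nuclear receptor NR2F1 (ENSDARG00000052695), at 0, 0, 0.462 and 90.9 TPM and at 0.376, 2.43, 75.4 and 256 TPM in the venous cells of the earlier and later stage, and at most 5.14 TPM in arterial cells (-2.60). In at least 1 of the 21 omissions NR2F1 did not keep its sign at each stage. Its relative nr2f2 was at 0.78 against 0.66, then at 3.15 against 6.48, and was not called (-1.61). The factors fli1 (0.89), sox7 (0.43) and lmo2 (0.41) were high in both populations.

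Of 11 compared growth factor, receptor and secreted genes known from endothelium, 3 were called arterial and 0 venous (background 5.69% and 6.35%). All 11 averages were above 0, with a median of 1.32 (0.58 at 15-18 somites and 2.77 at 20 somites). Of these genes, igfbp7, CXCL12, cxcl12b and hbegfa passed the detection rule through arterial cells only and were high there by selection. The list was chosen with earlier results of these data known, and nothing is read about it from these counts. At the earlier stage some lay on the venous side, such as the fibroblast growth factor receptors FGFR1 (level 1.40 in arterial against 2.48 in venous cells), fgfr2 (2.77 against 3.96) and fgfr4 (5.36 against 6.60). The called genes were igfbp7 (4.47), a binding protein of insulin-like growth factors in 8 arterial and 1 venous cells, the proteoglycan esm1 (3.23) and the matricellular CCN2 (3.02). The gene esm1 lost its sign at a stage in at least 1 of the 21 omissions. Of CCN2 the highest value was in a venous cell, at 1096 TPM, and on the log2 of the mean TPM its difference was -0.33.

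Of junction genes 2 of 18 were called arterial, cldn5b and the gap junction gene gja4 (ENSDARG00000070357), which was in 8 arterial cells, at up to 1911 TPM, and in 1 venous cell, at 334 TPM (4.81). The shares of all genes called were 5.69% and 6.35%, and the counts here are too small to read against them. The 2 venous calls, ccm2 (-2.0) and PDCD10 (-3.51), encode partners in the cerebral cavernous malformation complex. The called PDCD10 (ENSDARG00000012591) lost its sign at a stage in at least 1 of the 21 omissions, and a second gene annotated PDCD10 (ENSDARG00000035054) was at 0.53 and not called.

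Genes of membrane traffic were called on both sides. Of 17 endocytosis and scavenger genes 3 were venous calls and 2 arterial, with a median of -0.73, where the background was 6.35% and 5.69%. The arterial calls belonged to caveolae, namely CAVIN2 (5.24, in 12 arterial and 3 venous cells) and cav2 (2.60). Both passed the detection rule through arterial cells only, and nothing is read about the list from counts of this size. The venous calls were the sorting nexin snx5 (-4.64), at 134 to 723 TPM in all venous cells and 0 to 383 TPM in arterial cells, the membrane repair gene dysf (-3.44) and the myosin myo1c (-3.35). The scavenger receptors stab1l (-0.73) and stab2 (-1.49) were not called. Further, bloc1s6 (-4.93), a subunit of the complex that makes lysosome-related organelles, was in 8 venous and 3 arterial cells.

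Several genes of protein folding and degradation were among the venous calls. The endoplasmic reticulum (ER) co-chaperone dnajb11 (-4.47) was at 36.1 to 453 TPM in all 8 venous cells and 0 to 307 TPM in arterial cells, and the proteasome assembly factor psmg1 (-4.55) was in 6 venous and 5 arterial cells. After these values were seen, the families were gathered by symbol, after 50 symbol prefixes had been looked at. Of 39 compared genes with a proteasome symbol (psm) 8 were called venous and 1 arterial, where 6.35% and 5.69% of all genes were called. Their median was -0.92 (-0.49 at 15-18 somites and -1.15 at 20 somites) and 25 of 39 were below 0. Among the venous calls psme3ip1 (-2.71) is not a proteasome subunit. That gene, psmg1 and PSMD11 (ENSDARG00000060150) passed the detection rule through venous cells only and were high there by selection. Among the genes not called, psmd5, psmb4, psmd10, psmg2, psmc1b and psmd12 also passed through venous cells only. The family was chosen for its values, so its counts and median are not read as a result. Gathered in the same way, genes with the symbol eif, most of them translation initiation factors, gave 3 venous and 2 arterial calls of 44 with a median of -0.18. The venous calls include eif4ebp1 (-3.87), which encodes a repressor of initiation. Arp2/3 genes of actin nucleation gave 2 venous and 1 arterial calls of 11 with a median of -0.21. The base and lid subunits psmd8 (-3.92), psmc6 (-3.32) and psmc2 (-3.28) were detected in all 8 venous and 10 of 13 arterial cells each. Not all subunits followed, as psmb5 was called arterial (2.16) and psma8 was at 0.01. Of 20 ER chaperone and translocon genes 4 were venous calls, dnajb11, sdf2l1 (-3.60), ssr2 (-3.44) and canx (-2.05), and 1, pdia7 (2.41), was arterial. Of 16 genes with the symbol usp, most of them deubiquitinases, 15 were below 0 and 3 were called venous. Among them usp14, usp39, usp12b, USP2, usp19, usp1 and usp42 passed the detection rule through venous cells only. They were high there by selection, whereas usp16 passed through arterial cells only. These families were gathered after their values were seen, and nothing is read about them from these counts. Ribosomal proteins differed little, with 0 of 67 called and a median of -0.15, and of 13 genes of the mitochondrial genome 0 were called (-0.27).

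Cell cycle and metabolic genes gave single calls. The replication helicase subunit mcm4 (5.60) was in 9 arterial and 1 venous cells, and it was the only call among 11 genes of S phase. Among cell cycle inhibitors, CDKN1B (ENSDARG00000054271) was called arterial (3.28, with its sign at a stage lost in at least 1 of the 21 omissions) and ccng2 venous (-2.19). The glycolytic regulator PFKFB4 was called venous (-2.82), with a level of 6.31 (arterial) against 7.41 (venous) in the earlier sample and 0.61 against 5.16 in the later one. The mitochondrial dehydrogenase subunit idh3a was called arterial (3.47). The immediate early gene nr4a1 (4.02), an orphan nuclear receptor, was called arterial among 19 genes of that list, which had a median of 0.06. Of 12 Wnt genes 0 were called in either direction, and the differences lay between -1.02 and 1.60. Of all genes compared 5.69% were called arterial and 6.35% venous, and the counts of all these lists are too small to read against these shares.

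Among markers of other cells, keratin krt8 was called arterial (2.24), at 302 to 7712 TPM in arterial and 336 to 943 TPM in venous cells, with 12 of 13 arterial cells above every venous cell. Its partner krt18a.1 had a difference of 1.90 and was not called. The myeloid factor spi1b was called venous (-2.43), at 2.11 to 28.9 TPM at 15-18 somites and 0 to 12.2 TPM at 20 somites, and at most 2.16 TPM in arterial cells. The macrophage genes lyz and cxcr3.2 were at 0 TPM in these cells, and mpeg1 was at most 2.33 TPM. Other factors of myeloid cells were detected, cebpb in 5 of 8 venous cells (up to 57.4 TPM) and 2 of 13 arterial cells, spi1a in 3 venous and 8 arterial cells, and cebpa in 2 venous cells (up to 154 TPM) and 2 arterial cells. The haem enzyme urod was the only erythroid call (3.03, arterial).

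The remaining genes of the largest arterial differences had mixed roles. They were the protocadherin pcdh19 (5.79), sh3bp4 (5.78), the lipid phosphatase PPAP2A (2 of 2) (5.75), the calcineurin-like chp2 (6.16), the ubiquitin-conjugating enzyme cdc34a (5.44) and the loci AL844567.1 and si:ch211-152c2.3 (5.18). The remaining venous genes were the splicing factor sf3b5 (-4.60) and the histone deacetylase HDAC7 (1 of 2) (-4.42). Of these, sh3bp4 was detected in 11 arterial and 1 venous cells, and HDAC7 (1 of 2) in 1 arterial and 5 venous cells. Only si:ch211-152c2.3 among these genes passed the detection rule in both populations, and the others were high on their side by selection. Cells of the arterial population held 6 to 12 of the 12 arterial genes with the largest differences (median 10) and venous cells 0 to 6 (median 2). Of the 12 venous genes, venous cells held 9 to 12 (median 11) and arterial cells 1 to 9 (median 5). These counts describe the choice of the genes.

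The called genes were then placed in the remaining endothelial populations, the 14 endothelial progenitor cells (EPC) and the 7 cells of a further endothelial population (EC2). At 15-18 somites there were 8 EPC and 2 EC2 cells, and at 20 somites 6 and 5. The stages had equal weight, so 2 cells carry as much of each EC2 level as the other 5. Of the 317 arterial calls, the level in EC2 was nearer to the arterial than to the venous level for 201 (63.4%, against 52.8% of all genes compared), and the level in EPC for 112 (35.3%, against 48.5%). The median level of these genes was 5.06 in arterial, 4.08 in EC2, 2.75 in EPC and 1.83 in venous cells. Of the 6 arterial matrix calls 5 had an EC2 level nearer to the arterial than to the venous level, with emilin2a at 8.33 and spock3 at 7.84, and itga6a (2.05) did not. Of 6 arterial calls among G protein-coupled and Notch receptors 4 did, with calcrla at 9.49, and CXCR4 (1.95) and notch2 (0.70) did not. In EPC the levels were 2.31 for emilin2a, 0.42 for spock3 and 2.52 for calcrla. Of the 354 venous calls, the level was nearer to the arterial level for 205 genes in EPC (57.9%) and for 190 in EC2 (53.7%), and median levels were 4.66 in venous, 3.29 in EC2, 3.09 in EPC and 1.78 in arterial cells. Single venous genes were placed differently. The gene agpat9 was low in both (1.62 in EPC and 0.82 in EC2), flt4 was detected in 14 of 14 EPC (5.84), and EFNA1 (8.87) and cxcl-c5c (6.47) were as high in EC2 as in venous cells or nearly so.

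**Figure D5:**
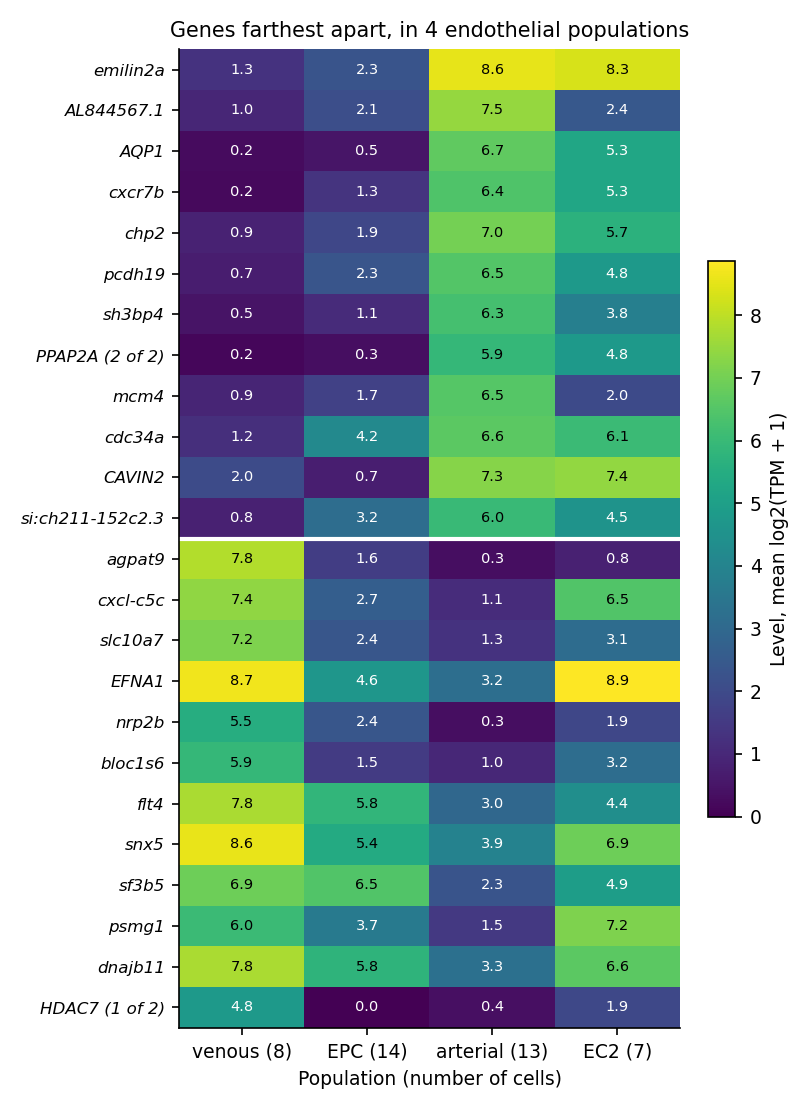
Level (mean log2(TPM + 1), equal weight for both stages) of the 12 arterial genes (above the white line) and 12 venous genes (below it) with the largest differences, in venous, EPC, arterial and EC2 cells, with the number of cells in parentheses. Most of the arterial genes, with AL844567.1 and mcm4 as exceptions, are also high in EC2, and most are low in EPC. The venous genes agpat9, nrp2b and HDAC7 (1 of 2) are low in the 3 populations other than venous. The earlier stage of EC2 rests on 2 cells.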

How the data were processed

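The authors deposited 1 value in TPM per gene and cell, made with Kallisto on the Zv9 annotation; the Kallisto version is not given in the sources used here. The deposited log2 table was not used. Populations came from the authors' deposited grouping, made on these same 96 cells. The arterial and venous members, the 31 gene lists and the rules were chosen with earlier results of these data known, and the symbol families after the values were seen. Named genes were the 12 with the largest difference in each direction among calls kept with any cell left out, the called members of the lists and 6 markers, and 5 genes added after their values were seen; other members are named where their list is described. Symbols were matched for 20017 of 27931 identifiers (71.7%). Symbols in capitals are those of the human gene, and which zebrafish copy is meant was not resolved. The limit for 0 detected cells is 3 cells of the total and covers counting only. Depth is unknown. No coordinates or sequences are given. Calculations used Python 3.11.15, numpy 2.4.6 and pandas 2.3.3, checked on simulated data. Alternatives were other pseudocounts (0.1 and 10), detection at 5 TPM or none, other averages, scaling by median-ratio factors, single stages, a difference of 3, omission of marker table genes and of each cell. Results of 2 lists are not reported here.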

Additional observations from a re-analysis of the deposited data

Results flagged for a closer look

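The differences of the markers dll4, hey2 and dab2 had opposite signs at the stages, with a small value at a single stage for dll4 and dab2. The difference, arterial minus venous on the log2(TPM + 1) scale, was -0.29 at 15-18 somites and 6.97 at 20 somites for dll4, -0.83 and 1.1 for hey2, and -2.24 and 0.035 for dab2. Whether the stages truly diverge was not tested, since a stage is a lone sample and the later one holds 3 arterial cells.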

How the results depend on the processing

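The number of calls depended on the scale. With a pseudocount of 0.1 there were 580 arterial and 644 venous calls, and with a pseudocount of 10 there were 97 and 71, so that the arterial share of calls was 57.7% in place of 47.2%. A required difference of 3 left 128 and 122. The cells at 15-18 somites alone gave 737 and 924 calls and those at 20 somites alone 1175 and 1273. With no filter on low values the calls were 433 and 410, and the correlation between the stages was 0.070 in place of 0.158. When each of the 21 cells was left out in turn, the arterial calls numbered 312 to 411, the venous calls 313 to 438 and the correlation was 0.127 to 0.174, and 254 to 300 of the 317 arterial and 263 to 343 of the 354 venous calls were shared. On the log2 of the mean TPM 185 arterial and 214 venous calls were shared. The difference of hey2 was -0.12 with a pseudocount of 10, -0.43 with the median over cells, -0.55 with every cell weighted equally, -0.83 with the earlier stage alone and between -0.97 and 1.0 with a cell left out. On the log2 of the mean TPM, CCN2 was at -0.33 and calcrlb at 0.59. With the earlier stage alone dll4 was at -0.29, and with the later stage alone dab2 was at 0.035 and stab1l at 0.47. The causes were not tested. Of 74 called named genes, CCN2 was the only one to change direction under any of these alternatives. No paired analysis was possible because each stage is a single sample, and cells carry no numbers that link the populations. The planned search of promoters for motifs was not run, as no sequences were used here.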

Other observations

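Some genes not described above were far apart at both stages in opposite directions. A difference of at least 3 at both stages was found for 89 genes in the same direction and for 33 in opposite directions. Among the latter, ap1s3b, a subunit of the clathrin adaptor AP-1, was at a level of 2.96 (arterial) against 8.85 (venous) in the earlier sample and at 7.33 against 4.26 in the later one. The ectonucleotidase entpd1 was at 3.25 against 6.39 and then at 8.36 against 4.33. The Wnt receptor FZD7 was at 7.87 against 4.05 and then at 4.84 against 7.90. The sterol regulator insig1 was at 6.32 against 2.02 and then at 3.19 against 7.72. The junction gene jam2a had an average difference of 5.18 that came from the later stage, with levels of 4.64 against 3.91 and then of 9.64 against 0. These genes were chosen after their values were seen, and the contrast of the stages was not tested.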
